A study of Mus musculus with 43 samples.

Results

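The mRNA levels of 10 genes around sphingolipid and sulfatide synthesis were examined in glia purified from the cerebral cortex of mice with and without lymphocytes. The genes were taken by name from the 55416 genes listed for each library, and all 10 were listed for all 43 libraries. Fa2h and Gal3st1 had 0 counts in some microglia libraries. They were Sptlc1, Sptlc2, Cers2, Degs1, Sgms1, Fa2h, Gal3st1, Galc, Aspa and Plpp3.

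Oligodendrocytes, oligodendrocyte precursor cells (OPCs), astrocytes and microglia were isolated by immunopanning, in which a cell suspension passes over dishes coated with antibodies, from 3-month-old littermate pairs of a B6 background. In each of 6 pairs 1 mouse was Rag2-/-, which lacks mature T and B cells, and the other was its immunocompetent control, which was Rag2+/- in pairs 1, 2, 3 and 5 and Rag2+/+ in pairs 4 and 6. Mice of both sexes were used, all shared 1 clean facility, and the replicate number of a library is the number of its pair. Littermates of a pair were of the same sex except in pair 6, which had a male control and a female Rag2-/- mouse. The groups held 4 control and 4 Rag2-/- libraries of oligodendrocytes (pairs 1, 3, 5 and 6), 6 and 5 of OPCs, 6 and 6 of astrocytes, and 6 and 6 of microglia. The null allele was constitutive and so was carried by the glia themselves. The comparison of genotypes asks whether glia need lymphocytes for their resting expression, and the comparison of cell types shows where each step of the pathway is expressed.

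Sphingolipids are built from serine and palmitoyl-CoA by serine palmitoyltransferase, extended to ceramide by ceramide synthases and a desaturase, and then given a head group. In oligodendrocytes much of the ceramide holds a fatty acid 2-hydroxylated by FA2H and is joined to galactose by the enzyme of Ugt8a. The galactosylceramide formed is sulfated by the enzyme of Gal3st1 to sulfatide. Galactosylceramide and sulfatide are major components of myelin. GALC breaks galactosylceramide down in the lysosome. Aspa and Plpp3 belong to neighbouring pathways: ASPA releases acetate, a building block of myelin lipids, from N-acetylaspartate, and PLPP3 is a membrane phosphatase of lipid phosphates such as sphingosine 1-phosphate.

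2 of the purification reagents bind lipids of this pathway. The O4 hybridoma, which recognises sulfatide, coated plates used to deplete remaining OPCs that were not sequenced, and the GalC hybridoma, which recognises galactosylceramide and not the GALC enzyme, then captured the oligodendrocytes. The oligodendrocytes sequenced were therefore selected by a product of the pathway, and any part of this selection in the levels of its genes was not tested. Libraries of 1 cell type were pooled on 1 sequencing lane, and lane and cell type therefore cannot be told apart.

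The libraries held 6499417 to 23118497 gene counts (median 10447042). Levels are normalised read counts, scaled with TMM factors over all libraries and written as CPM, and a gene was called where the Benjamini-Hochberg adjusted p of edgeR's quasi-likelihood test was under 0.05. Mitochondrially encoded genes took 45.8% to 60.1% of the counts of oligodendrocytes and 6.76% to 11.7% of those of microglia. Rag2 had counts in only 3 of the 43 libraries, with at most 4 counts, and in 0 of 21 Rag2-/- libraries, so that its level could not check the genotype labels. The marker list of each cell type summed highest in that cell type. The 7 oligodendrocyte markers reached 25700 to 35100 CPM in oligodendrocytes, 287 to 1200 in OPCs, 3190 to 6050 in astrocytes and 58.3 to 96.8 in microglia. Other cells were also seen. In OPCs 8 astrocyte markers summed to 2350 to 3380 CPM in controls and 2710 to 6290 in Rag2-/- mice. The 7 OPC markers there summed to 3090 to 4340 and 2640 to 3790. In oligodendrocytes 8 neuron markers summed to 605 to 3050 in controls and 575 to 2200 in Rag2-/- mice. In these bulk samples fewer cells of a type and less RNA per cell cannot be told apart.

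The counts are over the exons of each gene. In GRCm39, with GENCODE M39 annotation, the genes of the shared steps lie as follows: Sptlc1 (ENSMUSG00000021468) at chr13:53486729-53531449 on the minus strand, Sptlc2 (ENSMUSG00000021036) at chr12:87351832-87435267 on the minus strand, Cers2 (ENSMUSG00000015714) at chr3:95221790-95234060 on the plus strand, Degs1 (ENSMUSG00000038633) at chr1:182103335-182110389 on the minus strand, and Sgms1 (ENSMUSG00000040451) at chr19:32097497-32367505 on the minus strand. In the galactolipid branch, Fa2h (ENSMUSG00000033579) at chr8:112071767-112120465 on the minus strand, Gal3st1 (ENSMUSG00000049721) at chr11:3933616-3951296 on the plus strand and Galc (ENSMUSG00000021003) at chr12:98167963-98225718 on the minus strand were counted. The neighbouring genes are Aspa (ENSMUSG00000020774) at chr11:73187042-73220422 on the minus strand and Plpp3 (ENSMUSG00000028517) at chr4:105014421-105089964 on the plus strand.

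The windows of 250 bases before the annotated starts of 4 genes are shown because their genes had the clearest cell type patterns or, for Gal3st1, departed from the pattern of its neighbours in the pathway. They are printed 5′ to 3′ on the strand of the gene from GRCm39, with starts from the GENCODE M39 canonical transcript. Capitals mark matches on either strand to the GC box GGGCGG, the CCAAT box CCAAT, the TATA box TATAAA and the SOX-like cores ACAAAG and ACAATG.
Fa2h promoter, chr8:112120457-112120706, minus strand: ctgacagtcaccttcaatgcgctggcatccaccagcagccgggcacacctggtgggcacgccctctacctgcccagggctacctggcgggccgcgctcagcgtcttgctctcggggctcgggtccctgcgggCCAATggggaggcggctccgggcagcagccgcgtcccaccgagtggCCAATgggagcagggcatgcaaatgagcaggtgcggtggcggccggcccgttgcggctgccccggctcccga
Gal3st1 promoter, chr11:3933366-3933615, plus strand: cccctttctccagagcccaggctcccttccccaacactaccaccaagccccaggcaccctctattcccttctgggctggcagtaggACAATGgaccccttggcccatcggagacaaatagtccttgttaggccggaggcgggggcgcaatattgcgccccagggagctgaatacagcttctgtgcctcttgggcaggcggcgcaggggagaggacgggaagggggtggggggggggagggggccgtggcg
Aspa promoter, chr11:73215483-73215732, minus strand: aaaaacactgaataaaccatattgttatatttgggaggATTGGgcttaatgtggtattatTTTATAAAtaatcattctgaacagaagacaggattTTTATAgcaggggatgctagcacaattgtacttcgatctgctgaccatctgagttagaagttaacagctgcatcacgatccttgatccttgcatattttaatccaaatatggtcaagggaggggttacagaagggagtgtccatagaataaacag
Plpp3 promoter, chr4:105014210-105014459, plus strand: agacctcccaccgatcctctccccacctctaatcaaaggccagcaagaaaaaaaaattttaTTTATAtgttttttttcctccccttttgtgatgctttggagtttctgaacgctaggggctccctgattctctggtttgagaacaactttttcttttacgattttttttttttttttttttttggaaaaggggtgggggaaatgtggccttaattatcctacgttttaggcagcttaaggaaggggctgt

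The Fa2h window was 72.0% G and C with 2 CCAAT boxes, and the Gal3st1 window was 65.6% G and C with 1 ACAATG. The Aspa window was 36.8% G and C and held 3 matches to the TATA box, 2 of them on opposite strands of 1 overlapping stretch, with 1 CCAAT box, while the Plpp3 window was 39.6% G and C with 1 TATA box. The median over 21770 promoters was 53.2%. Of these promoters 11.9% held a TATA box, 36.5% a CCAAT box, 36.3% a GC box, 15.9% ACAAAG and 9.41% ACAATG. Across the 10 genes, the windows of Aspa and Plpp3 alone held a TATA box, and those of the other 8 genes were 54.0% to 72.0% G and C. A match of letters is a description and not a binding site.

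Across cell types the members fell into a few patterns. Fa2h, Aspa, Cers2 and Degs1 had their highest mean in oligodendrocytes, Plpp3 had it in astrocytes, and Sptlc2 and Sgms1 had it in microglia. Gal3st1 was high in both oligodendrocytes and OPCs, and the means of Sptlc1 and Galc differed least between cell types in control mice. In control mice 6 of the 10 genes differed between oligodendrocytes and OPCs, where 26.5% of all 21368 genes tested did. Of them 4 were higher in oligodendrocytes (all genes 12.2%) and 2 lower (14.3%). Between oligodendrocytes and astrocytes 7 differed (36.2%), 6 higher in oligodendrocytes (20%) and 1 lower (16.2%), and between oligodendrocytes and microglia 8 (56.4%), 6 higher (29.3%) and 2 lower (27.1%). Between OPCs and astrocytes 5 differed (29.9%), 2 higher in OPCs (17.3%) and 3 lower (12.6%), and between OPCs and microglia 8 (58.2%), 5 higher (32.4%) and 3 lower (25.8%). Between astrocytes and microglia 7 differed (58.7%), 5 higher in astrocytes (30.7%) and 2 lower (28%).

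**Figure D1:**
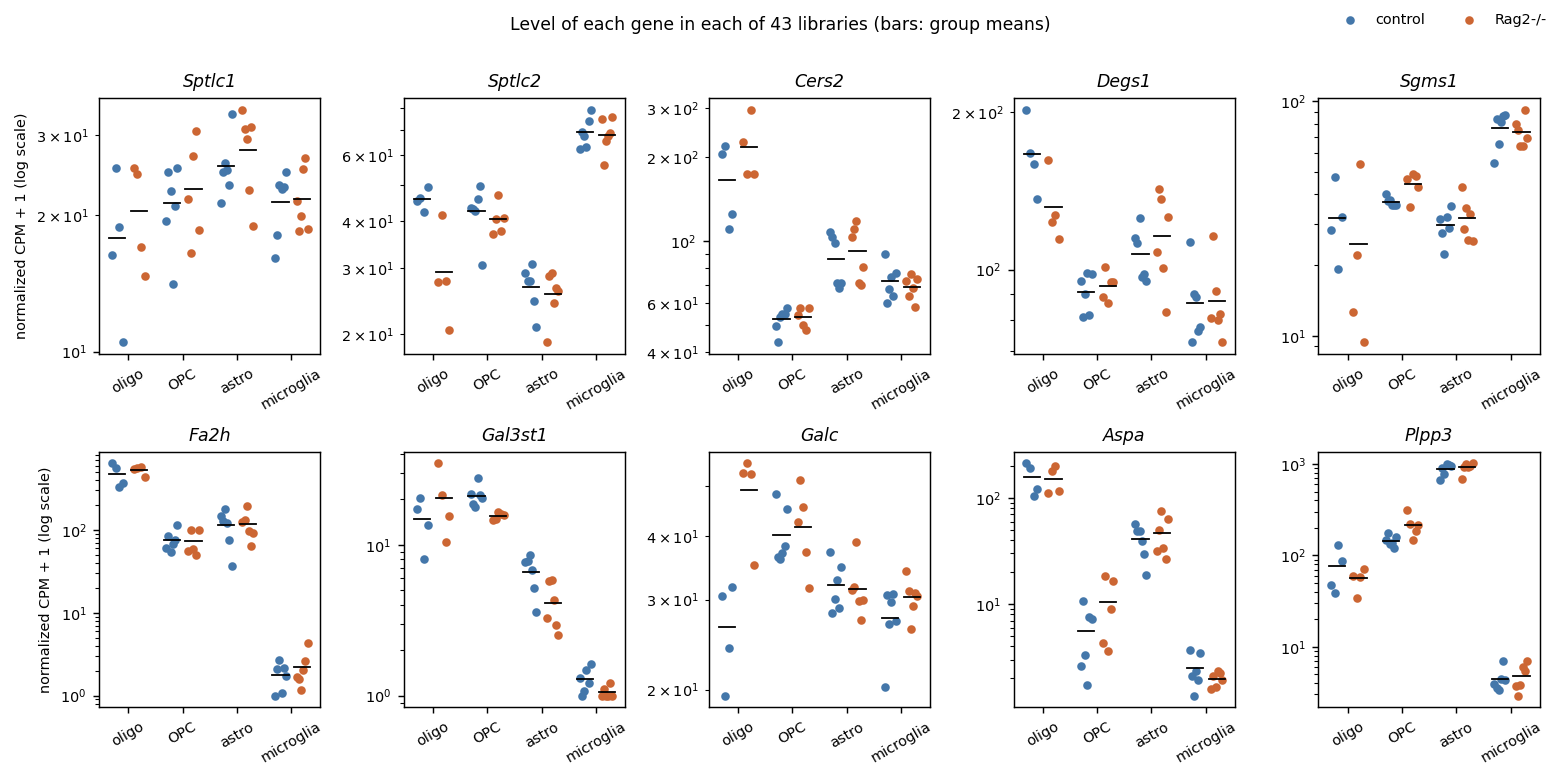
Normalized CPM plus 1 on a log scale for each gene in all 43 libraries, by cell type and genotype, with bars at the group means and a scale of its own for each gene. Fa2h and Aspa are highest in oligodendrocytes, Plpp3 in astrocytes, and Sptlc2 and Sgms1 in microglia, while control and Rag2-/- points mostly lie together.

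The 10 genes differed in level by orders of magnitude, which can be compared between genes only per length. Per kilobase of the canonical transcript, Fa2h was the highest of the 10 in oligodendrocytes at 201 CPM per kb, above 99.6% of 21255 genes. Aspa (98.6 CPM per kb), Cers2 (85.9), Degs1 (72.2) and Plpp3 (20.1) followed, and the other 5 members lay between 3.95 and 9.59 CPM per kb. Plpp3 was the highest in astrocytes (276 CPM per kb, above 99.7% of genes) and in OPCs (54.2), and Degs1 was the highest in microglia (41.8). These first places, and the gap between the first 5 members and the other 5 in oligodendrocytes, were the same when levels were divided by the length of all annotated exons.

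The first enzyme, serine palmitoyltransferase, joins SPTLC1 with the catalytic subunit SPTLC2. The subunits did not share 1 pattern. Sptlc1 had mean levels of 16.8 ± 6.18 CPM (SD, n = 4) in control oligodendrocytes, 20.2 ± 4.15 (n = 6) in OPCs, 24.7 ± 4.16 (n = 6) in astrocytes and 20.4 ± 3.43 (n = 6) in microglia, and the ranges of all neighbouring groups overlapped. None of the 6 contrasts of cell types was called for Sptlc1 in either genotype, and the lowest adjusted p in edgeR's test was 0.0525, for oligodendrocytes against astrocytes in control mice (log2 difference -0.57 ± 0.23 SE). That contrast was called under 3 alternative settings, with adjusted p of 0.0178 by DESeq2.

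Sptlc2 was highest in microglia, at 61.4 to 78.3 CPM in control mice (median 67.3). Control oligodendrocytes had 44.2, 45.1, 41.3 and 48.2 CPM in replicates 1, 3, 5 and 6, all below the microglia, control OPCs ran from 29.5 to 48.6 (median 42.2), and astrocytes were lowest at 19.9 to 29.8 (median 26.7). Sptlc2 in microglia exceeded oligodendrocytes by 0.61 ± 0.16 on the log2 scale (adjusted p = 0.00168) and astrocytes by 1.40 ± 0.15 (adjusted p = 5.87e-11). In Rag2-/- mice microglia were again above OPCs and OPCs above astrocytes, but the calls for oligodendrocytes differed. Their log2 difference from OPCs was 0.11 ± 0.16 in control mice (adjusted p = 0.664 by edgeR) and -0.48 ± 0.17 in Rag2-/- mice (adjusted p = 0.0308). From astrocytes it was 0.79 ± 0.16 (adjusted p = 0.000124) and 0.20 ± 0.16 (adjusted p = 0.332).

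Ceramide is made by ceramide synthases, of which CERS2 uses very long acyl chains typical of myelin, and by the desaturase DEGS1, which introduces the double bond of the sphingoid base. Cers2 in control oligodendrocytes was 204, 219, 110 and 124 CPM in replicates 1, 3, 5 and 6, above every control library of the other cell types, which ran from 42.6 to 107 CPM. OPCs were lowest, at 51.5 ± 5.05 CPM (n = 6). The difference of oligodendrocytes over OPCs was 1.66 ± 0.18 on the log2 scale in control mice (adjusted p = 1.94e-09) and 2.05 ± 0.19 in Rag2-/- mice (adjusted p = 5.52e-11). Of the exon bases of Cers2, 29.3% overlap genes on the other strand, among them Setdb1, and the strand setting of the counting was not given in the sources used here, so that its counts may include reads of those genes.

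Degs1 was 201, 166, 158 and 135 CPM in control oligodendrocytes, 80.2 to 97.7 (median 91.4) in OPCs, 94.2 to 125 (median 104.2) in astrocytes and 71.7 to 112 (median 82.2) in microglia. In control mice no oligodendrocyte library overlapped another cell type. In Rag2-/- mice oligodendrocytes had 113.5 to 161 CPM and overlapped astrocytes, at 82.1 to 142, and that contrast was not called (0.18 ± 0.15, adjusted p = 0.354). The difference over OPCs was 0.88 ± 0.15 on the log2 scale in control mice (adjusted p = 1.52e-05) and 0.51 ± 0.16 in Rag2-/- mice (adjusted p = 0.0124, 0.171 with no filter and 0.0581 in limma's test with sample quality weights). The lead of Degs1 in oligodendrocytes rests on the scaling for composition: as a plain share of all gene counts, the log2 ratio of mean levels over OPCs was -0.17 in control mice and -0.50 in Rag2-/- mice. Leaving out the mitochondrial genes or using the size factors of DESeq2 kept it positive. Of 84 calls of the 10 genes between cell types, 5 had the opposite sign on that plain scale, 4 of Degs1 and 1 of Galc.

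Ceramide leaves the galactolipid branch as sphingomyelin through the Golgi enzyme SGMS1. Sgms1 was highest in microglia, at 53.6 to 86.6 CPM in control mice (median 81.7), above all OPCs (34.9 to 39.1) and astrocytes (21.3 to 34.9) and above the oligodendrocytes (27.3, 46.6, 18.2 and 30.9). The difference of oligodendrocytes from microglia was -1.29 ± 0.29 on the log2 scale (adjusted p = 0.000207). In Rag2-/- oligodendrocytes Sgms1 was 11.6, 21.1, 53.0 and 8.40 CPM, and its SD of 86.6% of the mean was larger than that of any other member and group outside microglia.

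The galactolipid branch showed a split between its genes. FA2H supplies the hydroxylated fatty acids of galactosylceramide and sulfatide. Fa2h was 640, 563, 329 and 370 CPM in control oligodendrocytes and 537, 559, 572 and 431 in Rag2-/- oligodendrocytes, while OPCs ran from 49.4 to 115 CPM and astrocytes from 35.5 to 195 over both genotypes. No library of another cell type reached the oligodendrocytes, and in microglia Fa2h was at 0 to 3.28 CPM (0 to 36 counts). The difference of oligodendrocytes over OPCs was 2.68 ± 0.40 on the log2 scale in control mice (adjusted p = 1.4e-06) and 2.88 ± 0.43 in Rag2-/- mice (adjusted p = 1.27e-06).

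Ugt8a, whose enzyme makes the galactosylceramide, followed Fa2h, with 379 ± 132 CPM (n = 4) in control oligodendrocytes against 99.1 ± 22.8 (n = 6) in OPCs, a log2 difference of 1.93 ± 0.36 (adjusted p = 8.01e-05). Gal3st1, which adds the sulfate, had 16.2, 19.4, 7.01 and 12.6 CPM in control oligodendrocytes and 16.8 to 26.5 CPM (median 19.8) in OPCs, and these groups overlapped. Its log2 difference of oligodendrocytes from OPCs was -0.62 (95% interval -1.46 to 0.22, adjusted p = 0.284) in control mice and 0.40 (-0.45 to 1.25, adjusted p = 0.5) in Rag2-/- mice, whereas the intervals of Fa2h were 1.88 to 3.48 and 2.02 to 3.74. Gal3st1 in astrocytes was lower, at 2.56 to 7.58 CPM (median 6.22) in control mice, with 1.23 ± 0.41 between oligodendrocytes and astrocytes (adjusted p = 0.0169, and 0.0536 with no filter on low counts). In microglia it was at 0 to 0.625 CPM, with at most 10 counts in a library, and did not pass the filter of the microglia fit.

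GALC removes the galactose from galactosylceramide. Galc had 25.5 ± 5.75 CPM (n = 4) in control oligodendrocytes, 39.2 ± 5.22 (n = 6) in OPCs, 31.01 ± 3.54 (n = 6) in astrocytes and 26.6 ± 3.94 (n = 6) in microglia. The OPCs exceeded oligodendrocytes by 0.63 ± 0.17 on the log2 scale in control mice (adjusted p = 0.00509, and 0.107 with no filter). In Rag2-/- mice the estimate for the same contrast had the other sign and was not called, at 0.25 ± 0.17 higher in oligodendrocytes (adjusted p = 0.293).

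Aspa was 212, 190, 103 and 120 CPM in control oligodendrocytes. It was 17.9 to 56.2 CPM (median 43.4) in control astrocytes, 0.743 to 9.63 (median 4.31) in OPCs and 0.374 to 2.703 (median 1.22) in microglia. The difference of oligodendrocytes over OPCs, 5.27 ± 0.50 on the log2 scale (adjusted p = 6.02e-11), was the largest of the 10 genes in that contrast, and it was 4.07 ± 0.51 in Rag2-/- mice (adjusted p = 4.15e-08).

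Plpp3 was highest in astrocytes, at 661 to 990 CPM in control mice (median 926), with 119 to 175 in OPCs (median 141), 47.0, 38.1, 131 and 86.8 in oligodendrocytes and 2.39 to 5.95 in microglia (median 3.12). Astrocytes exceeded OPCs by 2.60 ± 0.23 (adjusted p = 6.77e-12) and microglia by 8.01 ± 0.30 (adjusted p = 1.27e-24) on the log2 scale. Its level in oligodendrocytes was 7.28% of that in astrocytes, where 8 astrocyte markers held 3.75% to 15.6%, and its level in OPCs was 19.6%, where those markers held 8.35% to 26.4%. Both shares of Plpp3 lay within the range of the astrocyte markers, and the part of astrocyte RNA in it was not tested. Of its exon bases 13.3% overlap Gm29838 on the other strand.

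The same reading was made for the oligodendrocyte-high genes. In astrocyte libraries the 7 oligodendrocyte markers were at 13.2% to 27% of their level in oligodendrocytes (median 18.2%). Fa2h stood at 23.1%, Ugt8a at 23.3%, Gal3st1 at 26.1% and Aspa at 27.9%, the last just above that range. Cers2 and Degs1 stood at 46.5% and 74.8%. In OPC libraries the markers were at 1.60% to 14.3%, Aspa at 4.40%, Fa2h at 14.7%, Ugt8a at 24.5%, Cers2 at 27.3% and Gal3st1 at 106%. These shares pool both genotypes, and for Gal3st1 they differed between them, at 146% in control and 74.2% in Rag2-/- mice in OPCs and at 40.6% and 15.9% in astrocytes. In microglia the markers were at 0.137% to 1.08%, and Fa2h (0.202%), Aspa (0.801%) and Gal3st1 (1.00%) lay within that range. How much of these levels came from oligodendrocyte RNA in the other libraries was not tested.

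**Figure D2:**
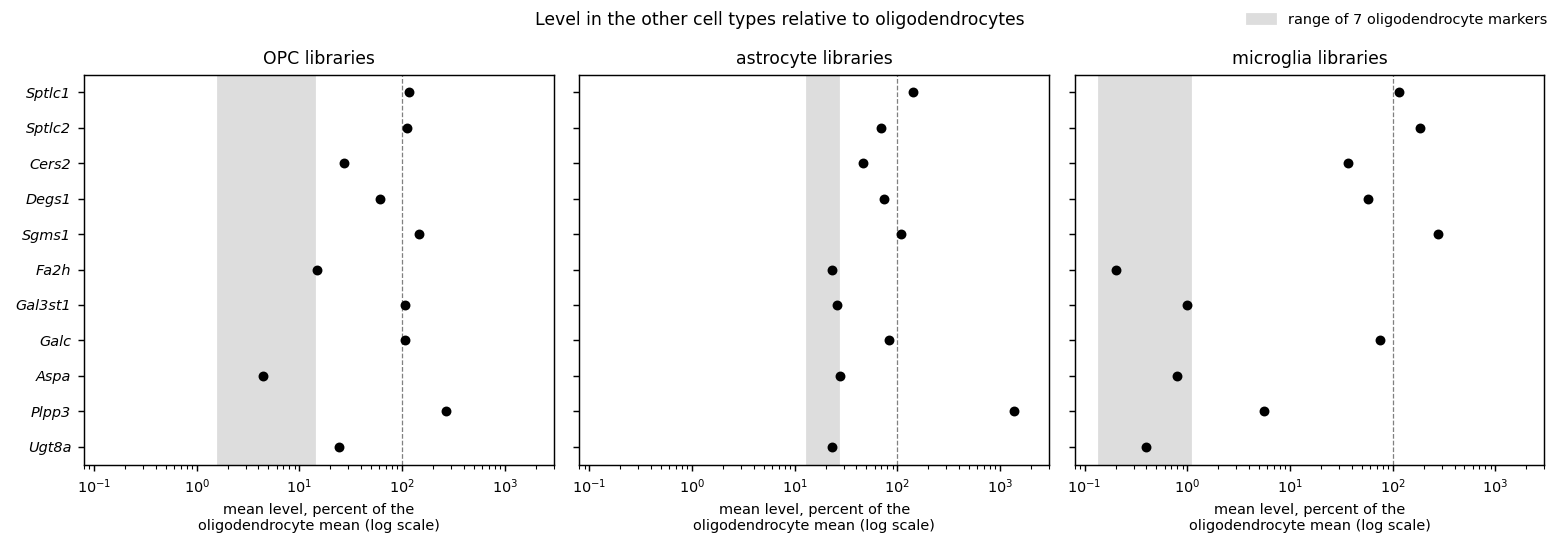
Mean level of each gene in OPC, astrocyte and microglia libraries as a percent of its mean in oligodendrocytes, on a log scale, with the range of 7 oligodendrocyte markers in grey and equality as a dashed line. Over both genotypes, Fa2h, Gal3st1 and Ugt8a lie within the grey band in astrocytes, where Gal3st1 is at 40.6% in control and 15.9% in Rag2-/- mice. In OPCs Gal3st1 is at 106% over both genotypes (146% in control and 74.2% in Rag2-/- mice).

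Most cell type differences were found again in the Rag2-/- mice, which are other mice but littermates of the controls. Both genotypes of a cell type shared a lane, and both sets of contrasts came from 1 fit, so that this is no independent repeat. Of 60 contrasts (10 genes in 6 pairs of cell types), 41 were called in control mice and 43 in Rag2-/- mice. Among them 37 were called in both with the same direction and 0 with opposite directions, 4 in control mice alone, 6 in Rag2-/- mice alone and 13 in neither. In Rag2-/- mice 7 members were called between oligodendrocytes and OPCs (all genes 27.8%), 4 higher in oligodendrocytes (11%) and 3 lower (16.8%), 6 between oligodendrocytes and astrocytes (39.3%), 5 higher (20.6%) and 1 lower (18.6%), and 9 between oligodendrocytes and microglia (57.6%), 7 higher (28.8%) and 2 lower (28.7%). Between OPCs and astrocytes 6 were called (25.3%), 3 higher in OPCs (15.2%) and 3 lower (10.1%), between OPCs and microglia 7 (57.3%), 5 higher (32.4%) and 2 lower (24.9%), and between astrocytes and microglia 8 (58.6%), 6 higher in astrocytes (30.7%) and 2 lower (27.9%). The 7 for oligodendrocytes against OPCs fell to 4 without Rag2-/- oligodendrocyte replicate 1.

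**Figure D3:**
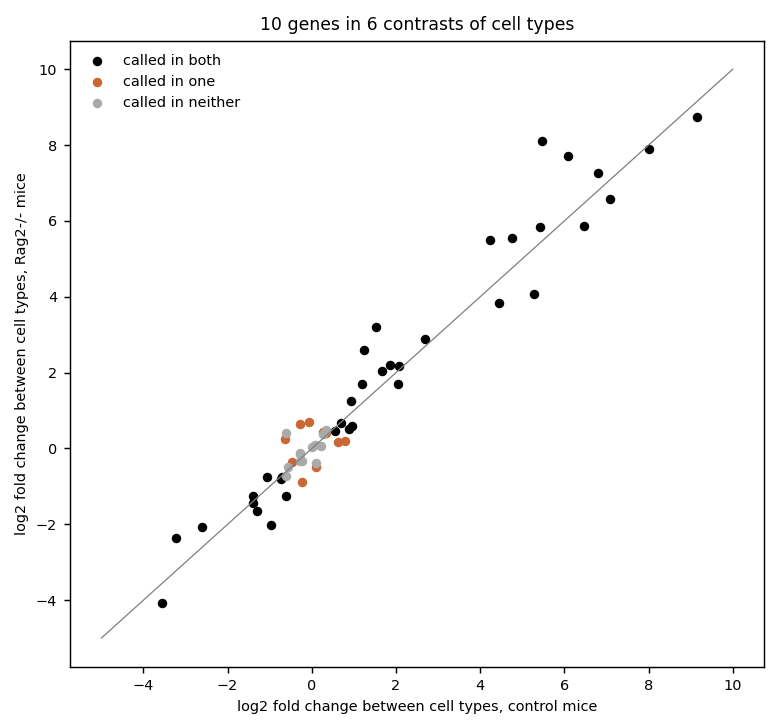
Log2 fold change between cell types in control mice (horizontal) and in Rag2-/- mice (vertical) for 10 genes in 6 contrasts, coloured by whether edgeR called the contrast in both, in 1 or in neither; the line marks equal values. The 37 contrasts called in both lie in the upper right and lower left.

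The other genes of the pathway, 60 in 10 lists, divided in the same contrasts. Of 56 tested, 9 were higher and 18 lower in control oligodendrocytes than in OPCs (all genes 12.2% and 14.3%), 13 higher and 16 lower than in astrocytes (20% and 16.2%), and 25 higher and 14 lower than in microglia (29.3% and 27.1%). Besides Ugt8a, the 2 largest differences of each direction included Elovl7, an elongase of very long fatty acids, at 2.72 ± 0.44 over OPCs (adjusted p = 5.9e-06). They also included Plpp4, a relative of Plpp3, at -4.25 ± 0.64 (adjusted p = 1.69e-06). Plpp4 had 0 to 44 counts in a control oligodendrocyte library and 468 to 892 in a control OPC library, so that the size of this fold is uncertain. Degs2, the paralogue of Degs1, was lower in oligodendrocytes, with 0 to 2 counts in a control library, than in OPCs, with 2 to 30 counts (adjusted p = 0.0221), and than in microglia, with 5 to 51 counts (adjusted p = 0.00294), and no fold is given so near 0. Cers6, a synthase of shorter ceramides, exceeded astrocytes in oligodendrocytes by 2.59 ± 0.28 (adjusted p = 9.89e-10) and in OPCs by 2.71 ± 0.26 (adjusted p = 6.47e-11), and it was lower in astrocytes than in microglia, at -3.36 ± 0.27 (adjusted p = 3.5e-14).

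Astrocytes held more of the acyl-CoA dehydratase gene Hacd2 than oligodendrocytes, which were at -3.23 ± 0.30 (adjusted p = 1.82e-11), and more Acss1, an acetyl-CoA synthetase, with -2.99 ± 0.41 (adjusted p = 1.36e-07). They also held more Papss2, which makes the sulfate donor, than OPCs, which were at -3.69 ± 0.38 (adjusted p = 3.15e-10), and more Acss2, at -2.71 ± 0.26 (adjusted p = 3.08e-11). Plpp4 was higher in OPCs than in astrocytes (3.17 ± 0.50, adjusted p = 2.55e-06) and than in microglia, which had 0 to 7 counts of it in a control library (adjusted p = 2.16e-13). Against microglia, Ugt8a was higher in oligodendrocytes (7.85 ± 0.46, adjusted p = 3.85e-18) and in astrocytes (5.88 ± 0.42, adjusted p = 1.23e-15). Folh1, whose peptidase releases N-acetylaspartate, was at 0 to 4 counts in control microglia, below oligodendrocytes with 62 to 177 counts (adjusted p = 1.42e-13) and astrocytes with 172 to 373 counts (adjusted p = 2.53e-15), and the elongase gene Elovl6 was higher in OPCs by 6.14 ± 0.33 (adjusted p = 2.69e-19). Microglia held more Ugcg, which makes glucosylceramide, than oligodendrocytes, at -2.46 ± 0.24 (adjusted p = 7.77e-12), and than astrocytes, at -2.57 ± 0.20 (adjusted p = 1.61e-14). OPCs were below microglia in the elongase gene Elovl1, at -1.71 ± 0.24 (adjusted p = 7.51e-08), and in the ceramidase gene Acer3, at -1.64 ± 0.21 (adjusted p = 9.5e-09).

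By list in the same contrasts, the galactolipid and sulfatide synthesis list (6 genes) had 2 higher and 1 lower in oligodendrocytes than in OPCs, and the galactolipid and sulfatide breakdown list (4 genes) had 1 higher and 2 lower. Of all genes 12.2% were higher there and 14.3% lower. Ceramide synthases and desaturases had 0 higher and 3 lower, sphingomyelin and ceramide transport 0 and 2, and lipid phosphate phosphatases 1 and 3. Serine palmitoyltransferase partners and glucosylceramide each had 0 and 1, ceramidases 1 and 0, and N-acetylaspartate 1 and 1. Of 10 genes tested for the supply of very long chain fatty acids, 3 were higher and 4 lower. Against microglia, where 29.3% of all genes were higher in oligodendrocytes and 27.1% lower, 6 of those 10 were higher and 0 lower. Of 7 genes of sphingomyelin and ceramide transport 5 were higher and 0 lower, and of the 4 breakdown genes 0 were higher and 3 lower. Galactolipid and sulfatide synthesis had 3 higher and 1 lower, and serine palmitoyltransferase partners 2 and 1. Ceramide synthases and desaturases had 2 and 2, and lipid phosphate phosphatases 3 and 2. Glucosylceramide had 0 and 2, ceramidases 1 and 2, and N-acetylaspartate 3 and 1. Lists this small were not tested as lists. The median log2 difference of the 56 pathway genes was -0.27 from OPCs, -0.32 from astrocytes and 0.53 from microglia, beside -0.17, 0.03 and -0.04 over all genes. For the 10 members those medians were -0.06, 0.71 and 1.07.

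The genes most like each member in profile over the 43 libraries (Pearson r of log2 CPM with 1 CPM added, among 21368 genes) followed the same division. The profile of Fa2h was closest to Tspan2 (0.993), Tnfaip6 (0.986) and Gsn (0.986), and that of Aspa to Cldn11 (0.984), Mag (0.981) and Ndrg1 (0.979). Cers2 was closest to Secisbp2l (0.924), Enpp4 (0.915) and Rnf13 (0.911), and Gal3st1 to Erbb3 (0.968), Nkx2-2 (0.965) and Serinc5 (0.965). Plpp3 was closest to Sparcl1 (0.994), Ttyh1 (0.992) and Igdcc4 (0.992). For Sptlc2 these were Rab8b (0.936), Lpcat2 (0.934) and Pde3b (0.933), and for Sgms1 Mfsd1 (0.909), Cyth3 (0.909) and Alkbh1 (0.887). Degs1 was closest to Nipal4 (0.859), Bc1 (0.845) and Gstp-ps (0.843). The flat genes had weaker neighbours, with Msantd7 (0.723), Slc30a6 (0.650) and Gm5512 (0.649) for Sptlc1, and Smad5 (0.745), Siah3 (0.727) and Gm36001 (0.726) for Galc. These values are over libraries of 4 cell types sequenced on lanes of their own, and are a description of the cell type differences, with no test.

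Lymphocyte deficiency changed no member at the threshold in any cell type. By edgeR, 0 of 10 genes were called by genotype in oligodendrocytes (0.0% of all 13802 genes tested), in OPCs (0.00592%) and in astrocytes (0.00679%), and 0 of the 9 genes tested in microglia (0.00667%). At an unadjusted p under 0.05 there was 1 in oligodendrocytes (all genes 3.38%), 2 in OPCs (4.02%), 1 in astrocytes (2.87%) and 0 in microglia (2.91%). In DESeq2's test no member was called either, while of all genes it called 206 for oligodendrocytes, 5 for OPCs, 1 for astrocytes and 3 for microglia. None of the other 60 pathway genes was called by genotype in any cell type either, with 53, 55, 54 and 50 of them tested, and 1 of them in each cell type had an unadjusted p under 0.05.

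**Figure D4:**
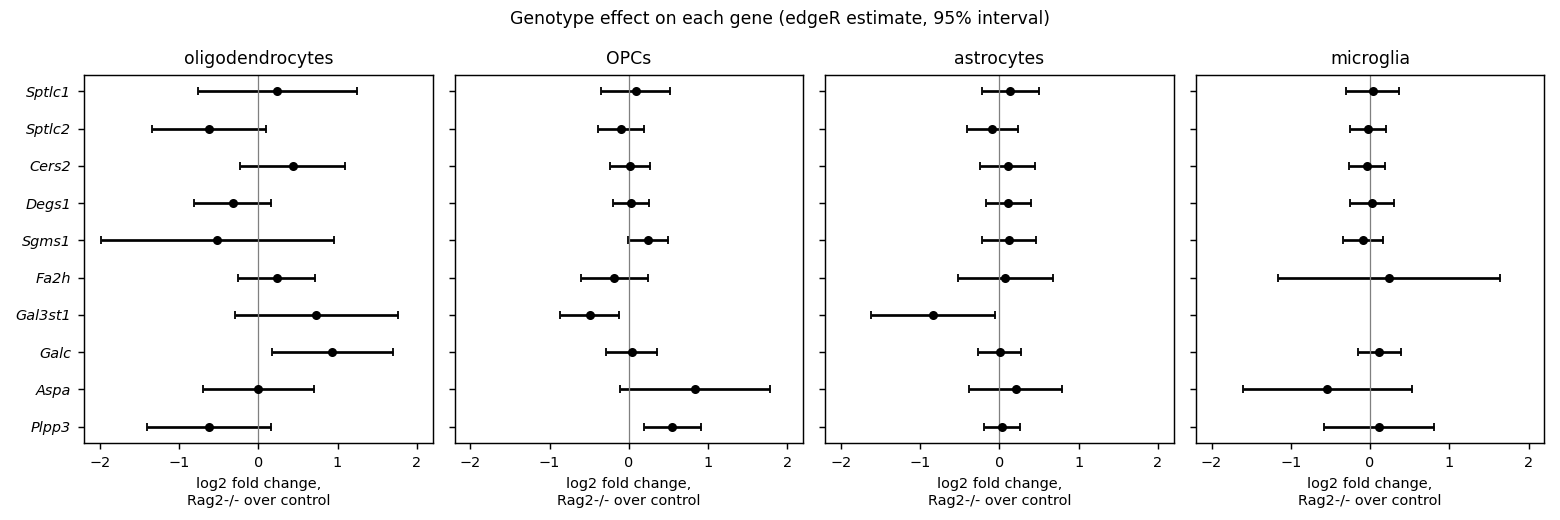
Log2 fold change of Rag2-/- over control with its 95% interval from edgeR for each gene and cell type; Gal3st1 in microglia was too low to be tested. Most intervals span 0, and the widest are those of Fa2h in microglia and Sgms1 in oligodendrocytes.

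The precision differed between cell types. For the 10 genes the standard error of the log2 fold change by genotype was 0.22 to 0.67 in oligodendrocytes (n = 4 and 4). Cers2, for example, had an interval of -0.23 to 1.10 in oligodendrocytes but of -0.24 to 0.26 in OPCs, -0.24 to 0.45 in astrocytes and -0.27 to 0.19 in microglia. Fa2h had -0.26 to 0.72 in oligodendrocytes and Aspa -0.70 to 0.70. Changes anywhere within those bounds were compatible with these libraries.

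Galc was the member with the lowest p in oligodendrocytes. It had 29.5, 18.5, 23.1 and 30.8 CPM in control replicates 1, 3, 5 and 6, and 52.0, 54.4, 51.7 and 34.0 CPM in their Rag2-/- littermates. The groups did not overlap, and Galc was higher in the Rag2-/- mouse of 4 of 4 pairs. Gal3st1 was also higher, and Sptlc2 and Degs1 lower, in the Rag2-/- mouse of every oligodendrocyte pair. The share of all genes that agree over pairs in this way was not counted. Pair 6 set a female Rag2-/- mouse against a male control. The controls were 3 males and 1 female, and the Rag2-/- mice 2 males and 2 females. In the same libraries the 7 OPC markers summed to 812, 1084, 749 and 496 CPM in control replicates 1, 3, 5 and 6 and to 988, 1154, 858 and 665 in Rag2-/- ones, also higher in 4 of 4 pairs, and 0 of the 7 were at 0; their part in the Galc values was not tested. The log2 fold change was 0.93 ± 0.35 SE (95% interval 0.17 to 1.70), with an unadjusted p of 0.0212 by edgeR (0.998 after Benjamini-Hochberg adjustment). Sptlc2 was the other member whose oligodendrocyte groups did not overlap, with 44.2, 45.1, 41.3 and 48.2 CPM in controls and 26.6, 40.5, 26.7 and 19.6 in Rag2-/- mice, a log2 fold change of -0.62 ± 0.33 (adjusted p = 0.998). These were 2 of 10 members, where 2.31% of all genes tested in oligodendrocytes did not overlap. In the other cell types the Galc groups overlapped, and its log2 fold changes were 0.04 ± 0.15 in OPCs, 0.01 ± 0.13 in astrocytes and 0.12 ± 0.13 in microglia.

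A fit of all libraries set the fold change by genotype in oligodendrocytes against the average of the 3 other cell types. It shared 1 estimate of the spread of each gene over all cell types. Fitted alone, Galc had an SE of 0.35 in oligodendrocytes and 0.13 to 0.15 in the others. The SE of the joint fit can therefore understate the spread in oligodendrocytes. By edgeR, 5 of the 10 genes and 18.3% of all genes had an unadjusted p under 0.05 in this contrast. Galc alone of the 10 genes was called, with a difference of 0.87 ± 0.20 on the log2 scale (adjusted p = 0.0182), where 2.54% of all genes were called and 0.87% were higher. This call did not hold under several settings: the adjusted p was 0.0546 with the mouse as a replicate block, since libraries of 1 number and genotype came from the same mouse, 0.173 with no filter, and 0.833 in limma's test with sample quality weights, which lets libraries differ in spread and which called no gene at all. Leaving out control oligodendrocyte replicate 3 gave 0.0606 and leaving out Rag2-/- oligodendrocyte replicate 5 gave 0.0535. The estimate itself stayed between 0.67 and 0.99 when each library was left out in turn. Of the 56 pathway genes tested, Ugcg and Plpp5 were called in this contrast; both were named after their values were seen.

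The estimates of Gal3st1 by genotype had different signs in different cell types, none of them called. In oligodendrocytes it was 33.7, 20.3, 9.43 and 14.6 CPM in Rag2-/- replicates 1, 3, 5 and 6 against 16.2, 19.4, 7.01 and 12.6 in controls, higher in the Rag2-/- mouse of 4 of 4 pairs (log2 fold change 0.73 ± 0.47, adjusted p = 0.998), with overlapping groups. In OPCs it was 13.5, 13.8, 15.4, 14.99 and 14.7 CPM in Rag2-/- mice and 16.8 to 26.5 in controls, lower in 5 of 5 pairs with no overlap, which 0.403% of all genes tested in OPCs showed. The log2 fold change there was -0.50 ± 0.17 (unadjusted p 0.0114, adjusted p = 1.0 by edgeR). In astrocytes it was 1.504 to 4.80 CPM (median 2.80) in Rag2-/- mice and 2.56 to 7.58 in controls, lower in 6 of 6 pairs, at -0.84 ± 0.37 (unadjusted p 0.0372, adjusted p = 1.0 by edgeR). Against the average of OPCs and astrocytes, the Gal3st1 effect in oligodendrocytes differed by 1.20 on the log2 scale (adjusted p = 0.218 by edgeR). With microglia in the average it was 1.68 ± 0.53 (adjusted p = 0.0707), but Gal3st1 had at most 10 counts in any microglia library, so that this value rests in part on a cell type in which the gene could not be tested.

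The marker levels beside these Gal3st1 values are as follows. The 7 OPC markers summed to 2640 to 3790 CPM (median 3190) in Rag2-/- OPCs and 3090 to 4340 (median 3530) in control OPCs, and 0 of the 7 were at 0 in either group. The oligodendrocyte markers in astrocyte libraries summed to 3190 to 6050 (median 4900) in Rag2-/- mice and 3530 to 4440 (median 4320) in controls. In oligodendrocyte libraries the OPC markers summed to 496 to 1080 (median 781) in controls and 665 to 1150 (median 923) in Rag2-/- mice and, like Gal3st1, were higher in the Rag2-/- mouse of 4 of 4 pairs. The part of these cells in the Gal3st1 values was not tested.

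Plpp3 in OPCs was the member with the lowest unadjusted p by genotype. It was 310, 218, 145, 184 and 212 CPM in Rag2-/- replicates 1, 2, 3, 4 and 6 and 119 to 175 (median 141) in controls, higher in 5 of 5 pairs with overlapping groups. The log2 fold change was 0.55 ± 0.17 (unadjusted p 0.0055, adjusted p = 1.0 by edgeR, 0.0107 with no filter). Leaving out each library in turn moved the estimate between 0.33 and 0.67. The 8 astrocyte markers in the same libraries summed to 6291, 4388, 2710, 4322 and 3450 CPM in Rag2-/- replicates 1, 2, 3, 4 and 6 against 2350 to 3380 (median 2960) in controls, the 7 endothelial markers to 28.9 to 107 (median 69.5) against 25.5 to 59.8 (median 35.4), and the 9 mural and fibroblast markers to 126 to 372 (median 251) against 111 to 290 (median 147). All of these markers had counts in both groups. Replicate 1 was the highest and replicate 3 the lowest of the Rag2-/- OPCs in Plpp3 and in each of these sums. The part of these cells in the Plpp3 values was not tested.

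**Figure D5:**
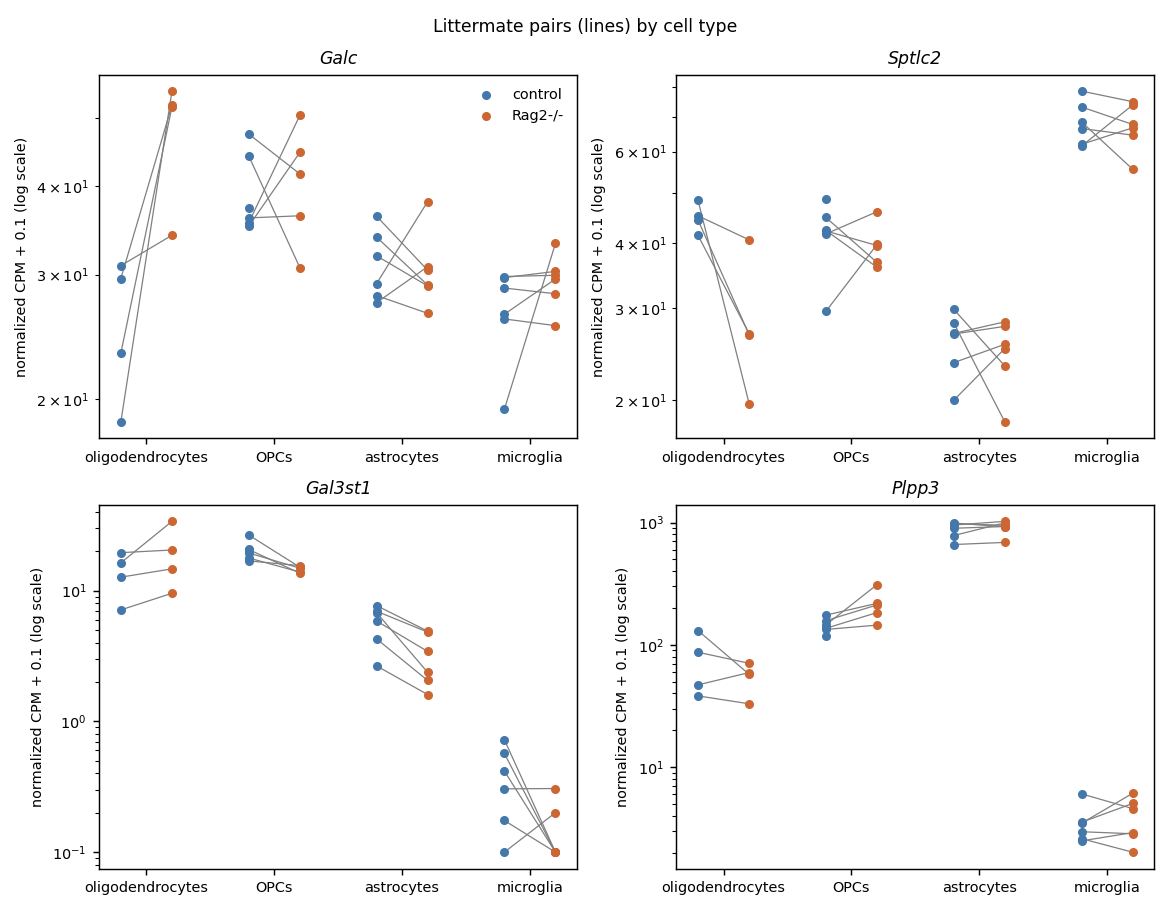
Normalized CPM plus 0.1 on a log scale for Galc, Sptlc2, Gal3st1 and Plpp3 in control and Rag2-/- libraries, with lines joining littermates. Galc lines rise and Sptlc2 lines fall in all 4 oligodendrocyte pairs, and Gal3st1 lines rise there but fall in all OPC and astrocyte pairs.

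Sex was a term of the same fits, with females compared with males. Of the 10 genes 0 were called by sex in oligodendrocytes (all genes 0.0362%, with 0.00725% higher and 0.029% lower in females), OPCs (0.0296%, 0.00592% and 0.0237%) and astrocytes (0.0407%, 0.00679% and 0.034%), and 0 of 9 in microglia (0.0467%, 0.00667% and 0.04%). At an unadjusted p under 0.05 there were 1, 2, 0 and 0 of them (all genes 8.23%, 4.30%, 6.73% and 3.92%). No member was called by DESeq2. The member with the lowest p was Aspa in OPCs, with 9.63 and 6.64 CPM in the female controls, 17.4 and 15.5 in the female Rag2-/- mice, 1.59, 2.29, 0.743 and 6.32 in the male controls and 3.27, 2.59 and 8.05 in the male Rag2-/- mice. The log2 difference was 1.71 ± 0.45 (unadjusted p 0.00163, adjusted p = 0.999 by edgeR, 0.00175 with no filter). The summed oligodendrocyte markers in the same libraries were 872 and 451 CPM in the female controls, 1202 and 897 in the female Rag2-/- mice, 287, 353, 395 and 1072 in the male controls and 356, 340 and 1045 in the male Rag2-/- mice. The 5 OPC libraries with the highest sums had 6.32 to 17.4 CPM of Aspa and the other 6 had 0.743 to 6.64, and the part of that RNA in the difference was not tested. The difference of females from males was 0.48 ± 0.20 (unadjusted p 0.0291, adjusted p = 0.999 by edgeR) for Fa2h in OPCs, and for Plpp3 in oligodendrocytes it was 0.89 ± 0.36 (unadjusted p 0.0313, adjusted p = 0.549 by edgeR). All female oligodendrocyte libraries came from pairs 5 and 6, with control replicate 6 the only male there, and pairs 1 and 3 were male. Sex and pair are therefore hard to tell apart in this cell type. Summed neuron markers were 574.5 to 1144 CPM in pairs 1 and 3 and 2164 to 3051 in pairs 5 and 6. Mural and fibroblast sums were also higher in pairs 5 and 6. Their part in the Plpp3 difference was not tested.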

How the data were processed

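RNA of immunopanned cortical glia was amplified with the Ovation system, sequenced as paired reads of 50 bases, mapped by the authors with STAR 2.7.8a to GRCm39 and counted per gene with HTSeq. The deposited files hold these raw counts, 1 file a library. Of all reads in a file, 33.5% to 52.0% were not assigned to a single gene, for whatever reason, and were left out. No strand setting is given in the sources used here.

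Genotype and sex were tested in each cell type alone (edgeR 4.0.16, quasi-likelihood, TMM, filterByExpr with a minimum count of 10 and total of 15, Benjamini-Hochberg over all genes tested). Cell types were compared, and the genotype effect of oligodendrocytes was set against the average of the others, in 1 fit of 43 libraries with a mean for each of 8 groups and a term for sex. Each gene had 1 estimate of its spread in that fit, shared by all cell types. The test was checked on simulated counts. R 4.3.3, DESeq2 1.42.0 and limma 3.58.1 were used. Fold changes are log2, and errors are standard errors unless marked SD.

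The members and lists, and the rule for named genes, were chosen with earlier results of these data known. The rule names the 10 members, Ugt8a, the 3 genes most like each member, and pathway genes past the threshold by genotype or sex or among the 2 largest changes in either direction of a cell type contrast. The marker lists of the 4 cell types are the study's own panels for these samples and are no independent evidence of purity. No library repeated another: the smallest chi-square per gene between replicates was 8.18. Replicates were separate mice. Libraries of 1 number and genotype came from the same mouse, and the mean correlation of their deviations was 0.04 (6 of 57 pairs over 0.1). Littermates within a cell type had a mean of 0.102 (8 of 21 over 0.1), and littermate pair was tried as a block. The alternatives were other size factors, filters, tests and blocks, no sex term, Rag2+/- controls alone, no mitochondrial genes, microglia left out of the average, and each library left out.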

Additional observations from a re-analysis of the deposited data

Results flagged for a closer look

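Of 80 groups of a gene, cell type and genotype, 6 had 1 library far from the others, where about 5% of groups would by chance. They were Sptlc2 in OPC control replicate 6 (29.51 CPM, next 41.6), Galc in astrocyte Rag2-/- replicate 3 (37.96, next 30.69), Galc in microglia control replicate 1 (19.24, next 25.87), Galc in oligodendrocyte Rag2-/- replicate 6 (34.01, next 51.73), Plpp3 in astrocyte Rag2-/- replicate 1 (687.9, next 924.6) and Plpp3 in microglia control replicate 5 (5.945, next 3.441). Galc gave 3 of the 6.

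The genotype effect on Galc in oligodendrocytes differed from its mean effect in the other cell types by 0.866 on the log2 scale (adjusted p = 0.0182 by edgeR), and by 0.986 (adjusted p = 0.00656) without oligodendrocyte Rag2-/- replicate 6, the library named above. The call was lost without oligodendrocyte control replicate 3 (adjusted p = 0.0606) or Rag2-/- replicate 5 (0.0535) and with the mouse as a replicate block (0.0546). Gal3st1 was higher in every Rag2-/- mouse than in its littermate in oligodendrocytes (ratio of group means 1.41) and lower in every one in OPCs (0.718) and in astrocytes (0.552). These opposite directions were not tested cell type by cell type. Against the average of OPCs and astrocytes the difference was 1.20 on the log2 scale, with an adjusted p of 0.218 by edgeR. Other members also agreed over all pairs. Galc was higher, and Sptlc2 and Degs1 lower, in every Rag2-/- mouse in oligodendrocytes, and Aspa and Plpp3 were higher in every one in OPCs. The share of all genes with such agreement was not counted.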

How the results depend on the processing

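No call of a member changed direction in any alternative fit, but some calls between cell types were lost or gained. Over the alternative settings 25 of 840 such results lost their call and 21 gained one. With each library left out in turn, 61 of 5160 lost it and 69 gained it. With no filter, Degs1 between control oligodendrocytes and astrocytes (adjusted p = 0.0629 by edgeR) and Sptlc2 between control OPCs and astrocytes (0.0506) were among those lost. On the plain scale of total gene counts, where levels were compared with no test, 5 of 84 called contrasts between cell types had the opposite sign, 4 of Degs1 and 1 of Galc. With no filter on low counts 1 member was called by genotype in OPCs (Plpp3) and 1 by sex in OPCs (Aspa). The count of members whose genotype effect in oligodendrocytes differed from the other cell types was 1, and became 0 with the mouse as a replicate block, 3 with DESeq2 (Galc, Sptlc2 and Gal3st1), and 0 with limma and sample quality weights, an alternative chosen after seeing the data. The count over all genes moved with it, from 542 to 100, 1377 and 0 genes, so that the limma count says nothing particular about the members. Leaving microglia out of the average, also chosen after seeing the data, left 1 member called (Galc, 0.91, adjusted p = 0.0215). Littermate pair as a replicate block changed no call by genotype in any cell type: for Galc in oligodendrocytes it gave 0.92 (adjusted p = 0.998). Beside the Galc difference above, the mouse block changed 2 calls, both in Rag2-/- mice: Galc between OPCs and astrocytes was lost, and Sgms1 between oligodendrocytes and astrocytes was gained.

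Leaving out each library in turn, the members called by genotype and by sex stayed at 0 to 0 in each cell type. In control mice they ranged 5 to 6 for oligodendrocytes against OPCs, 6 to 8 against astrocytes and 8 to 8 against microglia, 5 to 5 for OPCs against astrocytes, 8 to 8 for OPCs against microglia and 6 to 7 for astrocytes against microglia. In Rag2-/- mice they ranged 4 to 7, 6 to 7, 9 to 9, 5 to 6, 7 to 8 and 7 to 8 in that order, and 0 to 2 for the difference of genotype effects. That difference was gained by Gal3st1 without microglia Rag2-/- replicate 5 (adjusted p = 0.0273 by edgeR), by Sptlc2 without oligodendrocyte Rag2-/- replicate 3 (0.0135) and by Sgms1 without oligodendrocyte Rag2-/- replicate 5 (0.00697), and lost by Galc without the latter or without oligodendrocyte control replicate 3.

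The main scaling left the median of all genes at -0.17 between control oligodendrocytes and OPCs, 0.14 between OPCs and astrocytes and 0.16 between OPCs and microglia. DESeq2 called 206 genes by genotype in oligodendrocytes where edgeR called 0. Depth limited Gal3st1 in microglia most, with at most 10 counts.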
